A study of Mus musculus with 12 samples.

Results

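The comparison described here set B cells that carried an EuMyc transgene and had lost Max against normal B cells. It comprised 6 of the 12 RNA-seq libraries in the series, chosen by the genotype label: 3 labelled EuMyc Max KO and 3 labelled Max WT (WT below). In every library the RNA came from B220+ cells taken from the spleen of a mouse aged 4 to 5 weeks, with 3 mice for each genotype. The other 6 libraries, 3 labelled Max KO (Max deleted, no transgene) and 3 labelled EuMyc Max WT (the transgene with Max intact, EuMyc below), were used to show where EuMyc Max KO cells differed from each single change. The labels call the deletion conditional and the EuMyc cells premalignant. They do not name the Cre driver or the deleted exons, and they do not say whether WT and EuMyc mice carried floxed alleles or a Cre.

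MYC is a transcription factor that binds DNA as a pair with MAX, at short sequences called E-boxes. MAX also pairs with MNT, the MXD proteins and MGA, which act largely as repressors at E-boxes, and MGA is part of a polycomb complex that keeps germline genes silent in other tissues. In EuMyc mice Myc is driven by an enhancer of the antibody heavy chain locus, precursor B cells expand, and lymphomas follow.

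Between 16629314 and 17647732 reads were assigned to genes in the WT libraries, and between 17890935 and 18668193 in the EuMyc Max KO libraries. Levels are given as CPM, the read count scaled to a common library total, adjusted with TMM factors, which correct library totals for composition, and always for replicates 1, 2 and 3 in that order. Of 24421 genes in the files, 12878 had enough reads to be tested. Changes are log2 fold changes from edgeR's quasi-likelihood test over all 12 libraries, with the standard error (SE) and the Benjamini-Hochberg adjusted p, and a gene was called at an adjusted p under 0.05. All levels are shares of a library, so in these bulk samples fewer cells of a type and less RNA per cell cannot be told apart.

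The deletion itself could not be read from these counts. Max, the deleted gene, stood at 139, 110.3 and 108 CPM in WT cells and at 108, 104 and 102 CPM in EuMyc Max KO cells (log2 fold change -0.19, SE 0.08, adjusted p = 0.0937). Reads are counted per gene, so transcripts that lack the deleted part still count, and the Max level checks nothing about the labels. Myc, which counts the transgene and the mouse gene together if they share sequence, stood at 115, 96.0 and 106 CPM in WT cells and at 514, 565 and 487 CPM in EuMyc Max KO cells (log2 fold change 2.31, SE 0.08, adjusted p = 1.45e-08). All 3 EuMyc Max KO libraries were therefore above every WT library, and below the EuMyc libraries at 975, 1049 and 1007 CPM (log2 fold change -0.95, SE 0.08, adjusted p = 2.50e-07).

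The EuMyc Max KO libraries were not alike in transcripts of other blood cells, and this touches most of the results that follow. Defining B cell genes were present in all 3, among them Cd22, a B cell surface lectin, at 1136, 1309.7 and 1379.5 CPM against 1436, 1436 and 1434 CPM in WT cells. Transcripts of red cell precursors were present as well. Slc4a1, the anion exchanger of the red cell membrane, stood at 29.2, 68.0 and 7.39 CPM in WT cells and at 3196, 2083 and 488 CPM in EuMyc Max KO cells (log2 fold change 5.78, SE 0.97, adjusted p = 0.00350). Replicate 1 was highest, replicate 2 next and replicate 3 lowest, and replicate 3 was still above every WT library, although with replicates 1 and 2 left out the adjusted p was 0.0579. This order of the libraries is called the erythroid order below.

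The erythroid markers, of which 24 were tested, summed to 288, 496 and 146 CPM in WT cells, to 340, 656 and 263 CPM in Max KO cells, to 884, 685 and 864 CPM in EuMyc cells and to 10860, 7263 and 1939 CPM in EuMyc Max KO cells. All 24 were higher in EuMyc Max KO cells than in WT, with a median log2 fold change of 5.32, where 27.8% of all tested genes were called in either direction and 17% were called higher. With replicates 1 and 2 left out, so that replicate 3 alone stands for the genotype, 15 of the 24 were still called, with a median of 3.35. Globin genes themselves took at most 0.00140% of gene reads in any library. The share of alignments set aside as mapping to more than 1 place was 27.9%, 27.0% and 22.6% in the EuMyc Max KO libraries and 20.3% to 23.4% in WT. Whether globin reads were among them was not tested.

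Other blood lineages moved too, most of them also highest in replicates 1 and 2. All 11 tested neutrophil markers were called higher, with a median of 3.85, where 17% of all tested genes were called higher. The 16 neutrophil markers that were counted, tested or not, summed to 304, 280 and 40.6 CPM against 24.4, 17.6 and 14.5 CPM in WT. In Max KO cells they summed to 33.8, 180.1 and 30.2 CPM, and replicate 2 stood apart. Against Max KO edgeR called none of the 11 (1 at an unadjusted p under 0.05, median 1.48), where 10.7% of all tested genes were called higher. From replicate 3 alone it called none against WT (2 at an unadjusted p under 0.05, median 1.37). Of 25 monocyte and macrophage markers, 19 were called higher than in WT (median 1.06), against the same 17% of all tested genes. The median was 0.51 with replicates 1 and 2 left out. Csf1r, the macrophage growth factor receptor, stood at 402, 378 and 472 CPM in WT cells, 919, 738 and 538 CPM in EuMyc Max KO cells and 841, 820.3 and 632 CPM in Max KO cells. The groups were apart from WT, and EuMyc Max KO and Max KO overlapped. Against WT the adjusted p of Csf1r in EuMyc Max KO cells was 0.00830, and 0.276 with replicates 1 and 2 left out.

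Of the lymphoid and platelet lists, NK cell markers were called higher in 5 of 13 cases, T cell markers in 5 of 20, megakaryocyte and platelet markers in 3 of 7, and mast cell and basophil markers in 1 of 2, where 17% of all tested genes were called higher. With replicates 1 and 2 left out, the median log2 fold change was 0.63 for NK cell and 0.28 for T cell markers. It was 0.49 for platelet and 3.07 for mast cell and basophil markers. In the full fit these 4 medians were 0.96, 0.29, 0.78 and 2.01. In the smaller setting 5 mast cell and basophil markers had enough reads to be tested, in place of 2. Conventional dendritic cell markers went both ways, with 3 higher and 3 lower of 12, and 1 called higher without those libraries. For plasmacytoid dendritic cells 1 of 14 markers was lower, and this was Spib, which B cells also express (log2 fold change -0.52, SE 0.08, adjusted p = 0.00136). Its call was lost with replicates 1 and 2 left out (adjusted p = 0.0580), which leaves none of the 14 called by edgeR and 3 lower at an unadjusted p under 0.05. The T cell receptor chain gene Cd3e stood at 2.87, 4.66 and 3.63 CPM in WT cells and 3.84, 5.10 and 4.37 CPM in EuMyc Max KO cells, and the 2 sets overlapped.

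**Figure D1:**
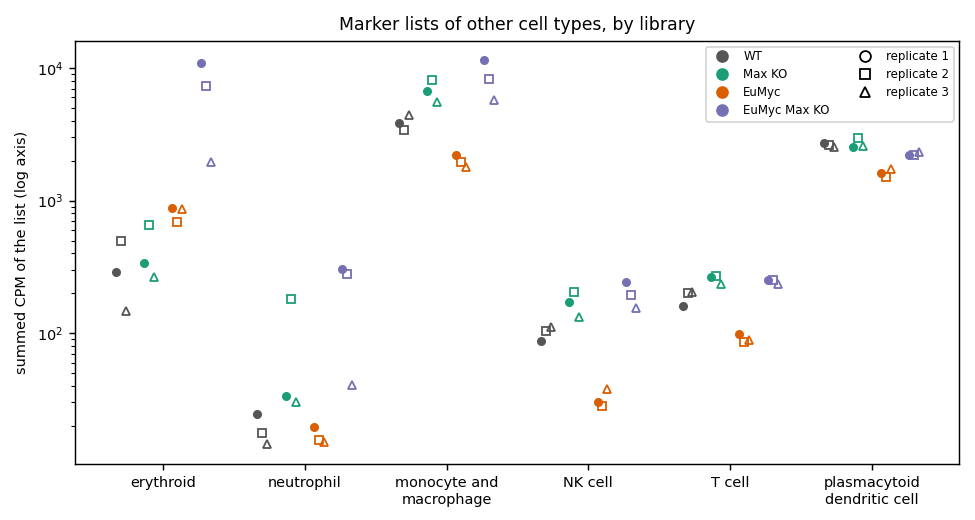
Summed CPM of 6 marker lists in each of the 12 libraries, on a log axis; colour gives the genotype and shape the replicate. The erythroid sum ran from 1939 to 10860 CPM in EuMyc Max KO libraries and stayed at or below 496 CPM in WT.

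Over all tested genes 3581 were called, 2190 higher and 1391 lower. More than a 2-fold change was found for 1099 of the higher genes and for 104 of the lower ones. All 3 EuMyc Max KO libraries lay above all 3 WT libraries for 22.2% of the tested genes and below them for 19.6%. The evenness of the EuMyc Max KO libraries was then compared between the directions. Among genes called higher, replicate 1 was above replicate 2 and replicate 2 above replicate 3 for 1514 genes (69.1%), against 27.9% of all tested genes. Among genes called lower the opposite order held for 47.3%, against 26.9% of all tested genes. The highest of the 3 libraries was at most 1.25 times the lowest for 56.6% of all tested genes. This held for 24.3% of the genes called higher and 74.8% of those called lower. Among the genes more than 2-fold higher it held for 5.0%. With replicates 1 and 2 left out, 658 genes were called higher and 274 lower. In that setting a lone library stands for the genotype, and fewer genes were called among all tested. Counts from it are therefore not to be set beside the 17% and 10.8% of the full fit. A smaller count of a list in that setting does not by itself show a smaller change. Which part of the called genes came from the erythroid, neutrophil and macrophage transcripts was not tested.

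The 12 genes with the largest rise followed the erythroid order. They were ranked among called genes with a mean of at least 5 CPM over the 6 libraries and no overlap with WT, leaving out lineage markers, antigen receptor segments and unnamed gene models. They were Apol8, Ackr1, Tmod1, Lincred1, Apol11b, Btnl10, Pkhd1l1, Mpp2, Sh3tc2, Ypel4, Slfn14 and Trim58. Tmod1, which caps actin filaments in the red cell skeleton, stood at 0.229, 0.568 and 0.596 CPM in WT cells and 57.7, 38.7 and 10.3 CPM in EuMyc Max KO cells (log2 fold change 6.24, SE 0.79, adjusted p = 9.03e-04). Ackr1, the Duffy chemokine receptor of red cells, stood at 0.229, 0.227 and 0.0596 CPM in WT cells and 24.6, 14.7 and 3.54 CPM in EuMyc Max KO cells (log2 fold change 6.31, SE 0.84, adjusted p = 8.80e-04). In each of the 12 genes replicate 1 was highest and replicate 3 lowest, and each was still called with replicates 1 and 2 left out.

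Genes that stood beyond all 9 libraries of the other genotypes, and were called against each of the 3, numbered 282 on the high side (2.19% of the tested genes) and 26 on the low side (0.202%). Of those that the same omissions left, the largest on the high side were Apol11b, Tinagl1, Tubb1, Apol8, Epb4.2 and Gda. Tubb1 is the tubulin of platelets and Epb4.2 a protein of the red cell skeleton, and the call of Tubb1 was lost with replicates 1 and 2 left out (adjusted p = 0.0677). Epb4.2 stood at 265, 181 and 39.1 CPM in EuMyc Max KO cells, and its highest value elsewhere was in the EuMyc cells at 21.8, 13.1 and 18.2 CPM. On the low side, Fcrla, an intracellular Fc receptor-like protein of B cells, stood at 589, 571 and 504 CPM in WT cells, 412, 424 and 442 CPM in Max KO cells, 611, 599.7 and 634 CPM in EuMyc cells and 341, 355 and 335 CPM in EuMyc Max KO cells (log2 fold change -0.69, SE 0.07, adjusted p = 6.61e-05). The 3 EuMyc Max KO values lay close together and below the other 9. Klhdc4, Tango6, Mctp2, Pdp1 and Jrk were also lowest in EuMyc Max KO cells, and their log2 fold changes against WT ran from -0.65 in Tango6 to -0.46 in Pdp1. With replicates 1 and 2 left out, the calls of Pdp1 and Jrk were lost. Their log2 fold changes were then -0.47 and -0.51, against -0.46 and -0.52 in the full fit.

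MYC and MAX partners were described next. Of 11 tested members of the network, 7 were called higher than in WT, Myc among them, where 17% of all tested genes were called higher, and 4 were called higher with replicates 1 and 2 left out. Mga, the large MAX partner of the polycomb complex, stood at 207, 243 and 245 CPM in WT cells, 273, 329.8 and 380.4 CPM in EuMyc Max KO cells and 405, 363 and 440.4 CPM in Max KO cells (log2 fold change 0.50, SE 0.11, adjusted p = 0.00593 against WT). Mnt, a MAX-binding repressor, stood at 82.8, 70.0 and 71.8 CPM in WT cells, 102, 96.1 and 118 CPM in EuMyc Max KO cells and 126, 126 and 119.8 CPM in Max KO cells (log2 fold change 0.49, SE 0.09, adjusted p = 0.00221 against WT). For both genes neither set of Max-deleted libraries overlapped WT, while the EuMyc libraries lay at 195, 193 and 192 CPM for Mga and 65.2, 65.3 and 75.5 CPM for Mnt. Mxd4, another MAX-binding repressor, was raised evenly, at 58.6, 62.8 and 58.6 CPM against 46.2, 47.4 and 45.2 CPM in WT cells (log2 fold change 0.38, SE 0.07, adjusted p = 0.00209), and its call was lost without replicates 1 and 2 (adjusted p = 0.0795).

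The MAX partners Mxd1, Mxd3 and Mxi1 followed the erythroid order. Mxd1 stood at 133, 89.4 and 34.9 CPM against 24.3, 24.8 and 23.8 CPM in WT cells, Mxd3 at 26.2, 16.6 and 5.51 CPM against 3.15, 3.69 and 3.81 CPM and Mxi1 at 71.4, 51.0 and 32.9 CPM against 22.98, 25.3 and 21.3 CPM. All 3 were called, and without replicates 1 and 2 the adjusted p rose to 0.0694 for Mxd1 and 0.226 for Mxd3, while Mxi1 stayed called at 0.0335. Mlx and its partner Mlxip, which stand beside the MAX pairs, and Mycl were not called. Mycn and Mlxipl had too few reads to be tested.

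Genes that MYC and MAX are known to drive were near their normal level although Myc RNA was high. Of 75 tested MYC target genes 16 were called higher and 4 lower, with a median log2 fold change of 0.04, and for 60 the 95% confidence interval lay within 0.5 of no change, which held for 52% of all tested genes. The count was 11 higher with replicates 1 and 2 left out, and edgeR then called none lower (1 at an unadjusted p under 0.05). By library the median of the list, set against the mean of WT, was 0.01, 0.02 and 0.07, so the 3 libraries lay close together. In EuMyc cells the median against WT was 1.35, with 73 of the 75 called higher (36.7% of all tested genes), and in the direct comparison 69 of the 75 were called lower in EuMyc Max KO cells than in EuMyc cells, where 73.7% of all tested genes were called and 36.1% were called lower. Against Max KO cells 31 were called higher, where 14.4% of all tested genes were called and 10.7% were called higher.

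Some targets stood between WT and EuMyc cells. Shmt1, a serine hydroxymethyltransferase of folate metabolism, stood at 18.5, 13.5 and 15.9 CPM in WT cells, 33.3, 40.8 and 35.5 CPM in EuMyc Max KO cells and 137, 171 and 140.2 CPM in EuMyc cells (log2 fold change 1.19, SE 0.12, adjusted p = 1.21e-04 against WT). It was also raised in Max KO cells, at 32.2, 29.3 and 33.2 CPM. Rcl1, which acts in ribosomal RNA cutting, stood at 41.5, 38.7 and 46.9 CPM in WT cells and 76.0, 77.8 and 87.1 CPM in EuMyc Max KO cells (log2 fold change 0.92, SE 0.09, adjusted p = 7.35e-05). It was higher there than in Max KO cells at 52.2, 48.8 and 46.0 CPM (log2 fold change 0.71, SE 0.09, adjusted p = 5.27e-04). Hk2 and Rrp12 were called higher as well, with log2 fold changes of 0.85 and 0.53.

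Genes of the growth machinery were near WT as well. Of 93 ribosome biogenesis genes 6 were called higher and 9 lower (median -0.09). For 87 the interval lay within 0.5 of no change, which held for 52% of all tested genes. Of 76 oxidative phosphorylation genes 3 were called higher (median 0.01, 72 within 0.5). Proteasome subunits were called higher in 2 of 34 cases and chaperones in 2 of 23, with 1 chaperone lower, and the medians were 0.01 and 0.00. Mitochondrial ribosomal proteins were called higher in 3 of 77 cases and lower in 1, and translation factors lower in 5 of 44. Counted in either direction, these shares lie below the 27.8% of all tested genes. For ribosome biogenesis and translation factors the share called lower was near the 10.8% of all tested genes. All 3 EuMyc Max KO libraries lay below all 3 WT libraries for 31 of the 93 ribosome biogenesis genes and above them for 10. Over all tested genes this held for 19.6% and 22.2%. From replicate 3 alone 6 ribosome biogenesis genes were called higher and 1 lower, and edgeR called none in the other 5 lists, with at most 3 of a list at an unadjusted p under 0.05 in either direction. In EuMyc cells against WT the medians were 0.84 for ribosome biogenesis and 0.93 for oxidative phosphorylation. In EuMyc Max KO against EuMyc cells 86 of the 93 and 75 of the 76 were called lower, where 36.1% of all tested genes were.

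Cytosolic ribosomal proteins lay slightly under the WT level. Of 82 tested, 15 were called lower and 1 higher (10.8% and 17% of all tested genes), with a median of -0.16, against -0.35 in Max KO cells and 0.51 in EuMyc cells. The list medians by library were -0.26, -0.17 and -0.06, lowest in the erythroid-rich libraries, and without replicates 1 and 2 edgeR called none of the 82 lower, with 5 lower at an unadjusted p under 0.05. Ribosomal protein genes have near-identical processed copies, so reads that fit several copies may be missing from these values.

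Metabolic lists held some genes above WT. Nucleotide synthesis genes were called higher in 10 of 34 cases and lower in 2 (median 0.10, against 1.44 in EuMyc cells), and serine and folate genes higher in 7 of 23, where 17% of all tested genes were called higher and 10.8% lower. The counts were 6 nucleotide synthesis and 2 serine and folate genes higher with replicates 1 and 2 left out. Impdh1, which feeds guanine nucleotide synthesis, stood at 29.2, 23.9 and 28.1 CPM in WT cells and 49.5, 50.8 and 42.7 CPM in EuMyc Max KO cells (log2 fold change 0.82, SE 0.09, adjusted p = 1.70e-04). Tk1, thymidine kinase, stood at 21.2, 22.1 and 20.7 CPM in WT cells and 74.0, 58.2 and 43.0 CPM in EuMyc Max KO cells (log2 fold change 1.45, SE 0.16, adjusted p = 2.24e-04), in the erythroid order. Slc16a1, a lactate transporter, stood at 32.1, 29.2 and 28.8 CPM in WT cells, 214, 149 and 67.6 CPM in EuMyc Max KO cells and 378, 409 and 348 CPM in EuMyc cells (log2 fold change 2.26, SE 0.35, adjusted p = 0.00216 against WT), and its level in replicate 3 was nearer to WT than that of the other libraries. Of the glycolysis and lactate genes 9 of 29 were called higher and 3 lower, and 3 were called higher without those libraries. Slc2a1, the glucose transporter GLUT1, was among the lower ones (81.7, 75.5 and 70.4 CPM in WT cells, 43.2, 47.1 and 60.7 CPM in EuMyc Max KO cells, log2 fold change -0.59, SE 0.11, adjusted p = 0.00239), and without replicates 1 and 2 its adjusted p was 0.0790.

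**Figure D2:**
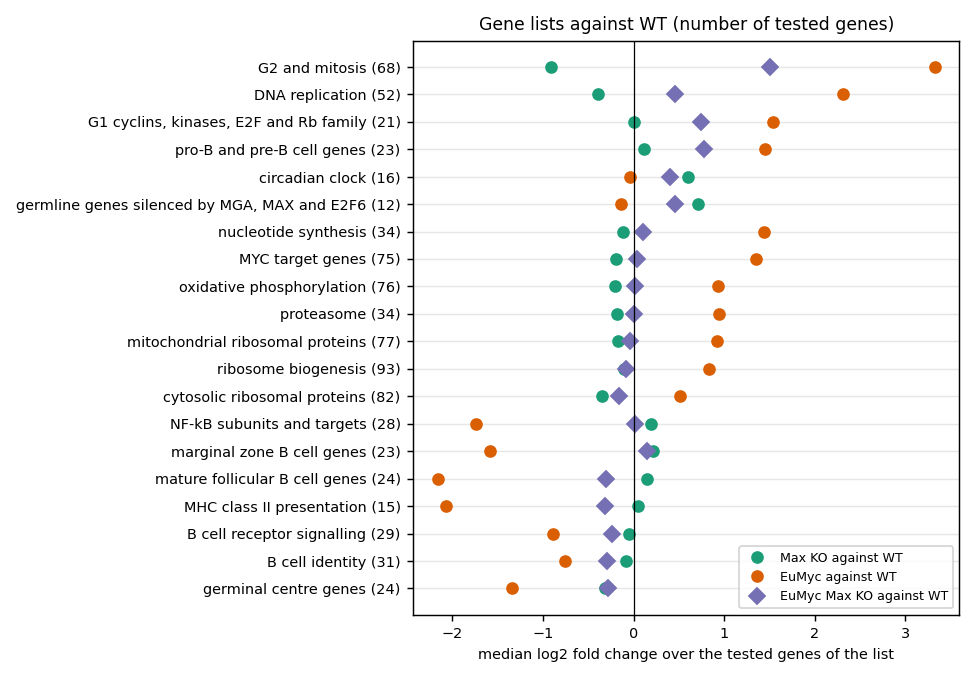
Median log2 fold change against WT of 20 gene lists in Max KO, EuMyc and EuMyc Max KO cells; the number of tested genes is in parentheses, and the 3 comparisons share the WT libraries. For MYC target genes the EuMyc Max KO median was 0.04 and the EuMyc median 1.35, while for G2 and mitosis genes the EuMyc Max KO median was 1.51.

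Cell division genes were well above the WT level. Of 68 tested genes of G2 and mitosis, 64 were called higher than in WT, where 17% of all tested genes were called higher. The median log2 fold change was 1.51. The level differed between the libraries: the list median against the mean of WT was 1.95, 1.48 and 0.66, and replicate 1 was above replicate 2 and replicate 2 above replicate 3 for all 68 genes. Anln, needed for the last step of cell division, stood at 5.90, 5.74 and 6.49 CPM in WT cells and 71.6, 43.9 and 20.9 CPM in EuMyc Max KO cells (log2 fold change 2.91, SE 0.38, adjusted p = 0.00104). Bub1, a spindle checkpoint kinase, stood at 5.96, 6.99 and 8.82 CPM in WT cells and 31.9, 26.4 and 15.8 CPM in EuMyc Max KO cells (log2 fold change 1.77, SE 0.24, adjusted p = 8.32e-04). The 3 libraries were above WT for both genes and below the EuMyc libraries, at 97.9, 106 and 89.6 CPM for Anln and 113, 121 and 105 CPM for Bub1.

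With replicates 1 and 2 left out, 42 of the 68 genes were still called higher and the median was 0.67. In Max KO cells the same list lay under WT, with a median of -0.91. All 68 genes were called higher in EuMyc Max KO than in Max KO cells, where 10.7% of all tested genes were called higher. The libraries stood in the order of the erythroid sum of 10860, 7263 and 1939 CPM. Red cell precursors also divide, and their part in the mitosis values was not tested.

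DNA replication genes were raised less. Of 52 tested, 31 were called higher and 1 lower, where 17% of all tested genes were called higher and 10.8% lower. The median was 0.46, with library medians of 0.70, 0.43 and 0.21. Without replicates 1 and 2 the median was 0.19. Cdc6, a licensing factor, stood at 5.33, 6.76 and 7.09 CPM in WT cells and 45.6, 32.1 and 17.6 CPM in EuMyc Max KO cells (log2 fold change 2.31, SE 0.30, adjusted p = 9.16e-04). Mcm3, a subunit of the replicative helicase, stood at 112, 101 and 111 CPM in WT cells and 178, 153 and 137 CPM in EuMyc Max KO cells (log2 fold change 0.53, SE 0.09, adjusted p = 0.00158). The Mcm3 libraries did not overlap WT but lay far below EuMyc cells at 462, 541 and 481 CPM, and without replicates 1 and 2 the adjusted p was 0.0535.

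Among regulators of G1, 14 of 21 tested genes were called higher and 1 lower (17% and 10.8% of all tested genes). The median log2 fold change was 0.74, and 0.23 with replicates 1 and 2 left out. Ccne2, a cyclin of S phase entry, stood at 2.98, 2.22 and 2.68 CPM in WT cells and 22.9, 18.7 and 10.6 CPM in EuMyc Max KO cells (log2 fold change 2.72, SE 0.26, adjusted p = 8.61e-05). Ccnd2, a D-type cyclin of B cells, stood at 116, 106 and 109 CPM in WT cells, 219.8, 216 and 216 CPM in EuMyc Max KO cells, 219, 192 and 191 CPM in Max KO cells and 55.3, 42.6 and 61.3 CPM in EuMyc cells (log2 fold change 0.98, SE 0.10, adjusted p = 1.54e-04 against WT). The EuMyc Max KO values were even, above WT, and on the other side of WT from EuMyc cells. Cdkn2a, the locus of the INK4A and ARF tumour suppressors, stood at 0.0573, 0.284 and 0.179 CPM in WT cells and 0.433, 0.877 and 1.77 CPM in EuMyc Max KO cells (log2 fold change 2.52, SE 0.62, adjusted p = 0.00968), against 7.59, 9.62 and 6.53 CPM in EuMyc cells. The WT level rests on few reads, and replicate 3 was the highest of the 3 EuMyc Max KO libraries.

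**Figure D3:**
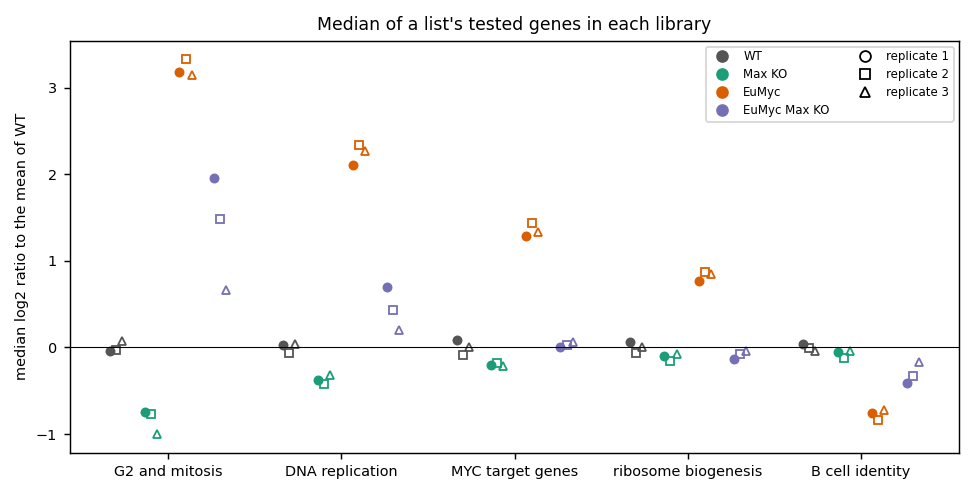
Median log2 ratio to the mean of WT (0.5 CPM added to both) over the tested genes of 5 lists, for each of the 12 libraries. The 3 EuMyc Max KO libraries spread from 0.66 to 1.95 for G2 and mitosis genes and from 0.01 to 0.07 for MYC target genes.

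Cell death regulators moved in both directions. Bmf, which releases the death program by binding BCL2 proteins, stood at 93.1, 82.6 and 79.5 CPM in WT cells and 42.4, 41.2 and 40.5 CPM in EuMyc Max KO cells (log2 fold change -1.04, SE 0.11, adjusted p = 1.20e-04). It was at 43.1, 34.1 and 43.6 CPM in Max KO cells and at 96.1, 96.0 and 119.7 CPM in EuMyc cells, so both Max-deleted genotypes were low and apart from both others. Bbc3, which encodes the p53 target PUMA, stood at 3.55, 2.96 and 2.62 CPM in WT cells and 9.31, 9.76 and 7.69 CPM in EuMyc Max KO cells (log2 fold change 1.55, SE 0.18, adjusted p = 2.21e-04). Bcl2l1, which encodes BCL-XL, was called higher in the erythroid order, at 139, 94.4 and 26.7 CPM against 13.4, 15.1 and 13.0 CPM in WT cells (log2 fold change 2.65, SE 0.48, adjusted p = 0.00426). Of 27 tested p53 genes and targets, 5 were called higher and 5 lower, where 17% of all tested genes were called higher and 10.8% lower. The counts were 2 higher and 1 lower from replicate 3 alone.

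Genes of the B cell program were slightly below WT in EuMyc Max KO cells. Of 31 B cell identity genes 18 were called lower, with a median of -0.29 against -0.75 in EuMyc cells, where 10.8% of all tested genes were called lower. The list medians by library were -0.41, -0.33 and -0.16, and without replicates 1 and 2 the median log2 fold change was -0.19. Pax5, the factor that holds B cell identity, stood at 247, 244 and 229.7 CPM in WT cells and 169.8, 187 and 209.8 CPM in EuMyc Max KO cells (log2 fold change -0.35, SE 0.07, adjusted p = 0.00440). Ms4a1, which encodes CD20, stood at 1759.9, 1657 and 1616 CPM in WT cells and 1229.5, 1247 and 1509 CPM in EuMyc Max KO cells (log2 fold change -0.34, SE 0.11, adjusted p = 0.0368). The values of both genes lay under WT in all 3 libraries, with replicate 3 nearest to it. Both calls were lost with replicates 1 and 2 left out, at adjusted p = 0.160 for Pax5 and 0.542 for Ms4a1, and that of Ms4a1 was also lost without any 1 of the 3 WT libraries or of EuMyc Max KO replicates 1 and 2. B cell receptor signalling genes were called lower in 17 of 29 cases (median -0.24), and the median was -0.19 without replicates 1 and 2.

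Cd79a, which carries the signal of the antigen receptor, fell the most among these. It was at 2122, 1937 and 1691 CPM in WT cells, 615, 654 and 758 CPM in EuMyc Max KO cells, 779, 862 and 835 CPM in Max KO cells and 898, 864 and 964 CPM in EuMyc cells (log2 fold change -1.50, SE 0.10, adjusted p = 4.14e-06 against WT). All 9 libraries with either change were below the 3 WT libraries. Its partner Cd79b fell less, from 2149, 1921 and 1841 CPM to 1220.0, 1281 and 1503 CPM (log2 fold change -0.56, SE 0.10, adjusted p = 0.00247), and without replicates 1 and 2 its adjusted p was 0.0908. A Cre driver often used in B cells, mb1-Cre, is inserted in the Cd79a gene. Cd79a was also lower in EuMyc cells, with Max intact (log2 fold change -1.08, SE 0.10, adjusted p = 4.19e-07 against WT). The labels do not name the driver. In EuMyc Max KO cells effects of such an insertion, of Max loss and of the transgene cannot be told apart here.

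Genes of mature B cells were nearer to WT than to EuMyc cells. Of 24 follicular B cell genes 8 were called lower and 1 higher (10.8% and 17% of all tested genes), with a median of -0.30 against -2.16 in EuMyc cells, and 22 were higher than in EuMyc cells (37.6% of all tested genes). From replicate 3 alone 1 was called lower and 1 higher. Klf2, which restrains activation and guides homing, stood at 283, 236 and 215 CPM in WT cells and 116, 106 and 148 CPM in EuMyc Max KO cells (log2 fold change -0.99, SE 0.16, adjusted p = 0.00194), near the EuMyc cells at 102, 109 and 137 CPM, and its call was lost without replicates 1 and 2 (adjusted p = 0.0826). Of 23 marginal zone genes 4 were called higher and 3 lower (median 0.15, against -1.58 in EuMyc cells), and 3 higher and 1 lower without those libraries. Notch2, the receptor that directs marginal zone fate, stood at 507, 564 and 556 CPM in WT cells and 379.8, 408 and 405 CPM in EuMyc Max KO cells (log2 fold change -0.45, SE 0.08, adjusted p = 0.00225). MHC class II genes were called lower in 6 of 15 cases (median -0.32, against -2.07 in EuMyc cells), and without replicates 1 and 2 edgeR called none of them, with 1 lower and 1 higher at an unadjusted p under 0.05.

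NF-kB subunits and targets had a median of 0.01, against -1.74 in EuMyc cells. Of 28 tested, 25 were called higher than in EuMyc cells, where 37.6% of all tested genes were. Against WT 5 of the 28 were called higher and 2 lower (17% and 10.8% of all tested genes). Without replicates 1 and 2 the counts were 2 higher and 1 lower. Ccl22, a chemokine that draws T cells, stood at 2.52, 3.92 and 3.75 CPM in WT cells, 11.6, 9.10 and 13.3 CPM in EuMyc Max KO cells and 9.15, 6.90 and 9.43 CPM in Max KO cells (log2 fold change 1.74, SE 0.28, adjusted p = 0.00127 against WT). In EuMyc cells it was nearly absent, at 0.0484, 0.266 and 0.366 CPM. MHC class I genes were close to WT, with 1 of 15 called and 14 intervals within 0.5 of no change (27.8% and 52% of all tested genes).

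Of 24 tested germinal centre genes, 10 were called lower and 2 higher (10.8% and 17% of all tested genes), and 4 lower and 1 higher with replicates 1 and 2 left out. S1pr2, the receptor that keeps cells in the germinal centre, stood at 13.0, 14.0 and 13.8 CPM in WT cells, 6.49, 4.11 and 6.39 CPM in EuMyc Max KO cells and 1.81, 1.79 and 1.49 CPM in Max KO cells (log2 fold change -1.26, SE 0.18, adjusted p = 7.01e-04 against WT). EuMyc Max KO cells were thus below WT, yet above Max KO cells (log2 fold change 1.74, SE 0.20, adjusted p = 4.31e-04). Gcsam stood at 10.6, 11.0 and 11.1 CPM in WT cells, 4.06, 3.07 and 5.46 CPM in EuMyc Max KO cells and 1.52, 2.05 and 1.14 CPM in Max KO cells, and was called against both. Without replicates 1 and 2 the adjusted p of Gcsam against WT was 0.0908. In both genes the EuMyc Max KO libraries lay between the WT and the Max KO libraries without overlap.

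The 2 higher genes of the list, also used by dividing cells, stood in the erythroid order. Ezh2, a histone methyltransferase, and Stil, a centriole protein, were called higher, Ezh2 at 79.6, 68.6 and 51.6 CPM against 37.9, 38.5 and 39.8 CPM in WT cells and Stil at 33.3, 21.6 and 10.5 CPM against 5.79, 5.97 and 6.25 CPM. Stil had an adjusted p of 0.00594, and 0.0588 without replicates 1 and 2. Other genes with large falls outside the lists included Irgc1 (25.6, 25.8 and 22.3 CPM in WT cells and 4.98, 5.65 and 2.13 CPM in EuMyc Max KO cells, log2 fold change -2.53, SE 0.29, adjusted p = 2.61e-04), Stac2 (84.9, 82.8 and 91.6 CPM in WT cells and 23.05, 18.2 and 27.1 CPM in EuMyc Max KO cells, log2 fold change -1.92, SE 0.18, adjusted p = 1.08e-04) and Ngfr (17.8, 13.9 and 20.8 CPM in WT cells and 3.35, 1.81 and 5.98 CPM in EuMyc Max KO cells, log2 fold change -2.23, SE 0.41, adjusted p = 0.00317). In each the 3 libraries were below WT, and the call of Ngfr was lost without replicates 1 and 2 (adjusted p = 0.0611). Cd209d, Gad1, Col6a4, Cyp4f18 and Klra17 were also among the 12 largest falls by the rule used for the rises. Without replicates 1 and 2 the calls of Cd209d, Col6a4, Cyp4f18 and Klra17 were lost. Their log2 fold changes were then -2.22, -1.53, -1.71 and -1.66, against -2.10, -1.94, -1.71 and -1.54 in the full fit. The call of Klra17 was also lost without WT replicate 2, WT replicate 3 or EuMyc Max KO replicate 1. Of the genes that met that rule Klk1b22 had the largest fall by fold, at 8.65, 11.6 and 11.9 CPM in WT cells and 1.51, 0 and 0 CPM in EuMyc Max KO cells (log2 fold change -4.40, SE 1.44, adjusted p = 0.0496), and its call was lost in 10 of 15 alternative analyses. Kallikrein genes share long stretches of sequence, so its count is uncertain.

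Genes of precursor B cells showed the 3 EuMyc Max KO libraries apart. Of 23 tested, 12 were called higher than in WT, with library medians of 0.84, 0.81 and 0.15, and 3 without replicates 1 and 2, where 17% of all tested genes were called higher in the full fit. Some were even, such as Sox4, a factor of early B cells, at 14.0, 13.5 and 12.1 CPM in WT cells and 22.5, 27.7 and 23.03 CPM in EuMyc Max KO cells (log2 fold change 0.89, SE 0.10, adjusted p = 2.43e-04). Bst1, a surface enzyme of precursor cells, stood at 4.93, 4.49 and 5.18 CPM in WT cells and 11.9, 10.03 and 15.0 CPM in EuMyc Max KO cells (log2 fold change 1.34, SE 0.19, adjusted p = 7.59e-04), highest in replicate 3. Others, picked after their values were seen, were high in replicates 1 and 2. Igll1, part of the surrogate light chain of the pre-B cell receptor, stood at 0, 0.284 and 0.0596 CPM in WT cells, 7.52, 7.89 and 0.884 CPM in EuMyc Max KO cells and 26.3, 22.3 and 6.32 CPM in EuMyc cells (log2 fold change 5.47, SE 1.25, adjusted p = 0.0107 against WT), a change set against few WT reads. Rag2, which cuts antibody genes for joining, stood at 0.0573, 0.227 and 0.0596 CPM in WT cells, 3.19, 2.91 and 0.104 CPM in EuMyc Max KO cells and 38.5, 38.3 and 43.7 CPM in EuMyc cells (log2 fold change 4.07, SE 1.08, adjusted p = 0.0196 against WT). For Rag2 replicate 3 lay inside the WT range. From replicate 3 alone the adjusted p of Igll1 was 0.404, and Rag2 changed sign (log2 fold change -0.17, adjusted p = 0.954). The call of Rag2 was also lost without WT replicate 1, WT replicate 3, EuMyc Max KO replicate 1 or EuMyc Max KO replicate 2.

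Which genes lay near the WT level was asked over all genes. For 6699 of 12878 tested genes (52%) the 95% confidence interval of the difference from WT lay within 0.5 on the log2 scale. Of these 6699 genes, 5116 (39.7% of all tested) were called between EuMyc and WT, where 71.6% of all tested genes were called. By direction, 36.7% of all tested genes were called higher and 34.9% lower. The 39.7% counts all tested genes and not the 6699, so it is not to be set beside the 71.6%. Most of the 6699 were called between EuMyc and WT, as were most of all tested genes. The count of 5116 therefore does not by itself show a return to the normal level. The genes with the largest EuMyc effect among the 5116 were chosen by that effect and by the interval, so their levels are a description. Thbd, thrombomodulin, stood at 4.47, 4.89 and 3.40 CPM in WT cells, 86.6, 86.7 and 77.6 CPM in EuMyc cells and 5.14, 5.32 and 3.07 CPM in EuMyc Max KO cells. Uck2, which salvages uridine, stood at 13.1, 11.9 and 14.8 CPM in WT cells, 115, 126 and 117 CPM in EuMyc cells and 12.7, 14.2 and 13.9 CPM in EuMyc Max KO cells. For both the EuMyc Max KO range overlapped WT, and the Max KO libraries were lower, at 2.03, 1.60 and 1.94 CPM for Thbd and 4.01, 5.50 and 5.31 CPM for Uck2.

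The other genes of this kind that were high in EuMyc cells were Akap12, Fam72a, Cplx2 and Cdca7. Among genes low in EuMyc cells, Cr2, the complement receptor CD21, stood at 1236, 1339 and 1342 CPM in WT cells, 48.6, 41.7 and 69.3 CPM in EuMyc cells and 1201, 1445 and 1454 CPM in EuMyc Max KO cells, and the interval of its log2 fold change against WT ran from -0.30 to 0.43. Lta, which encodes lymphotoxin, stood at 29.2, 26.7 and 27.7 CPM in WT cells, 1.45, 1.49 and 1.99 CPM in EuMyc cells and 29.1, 33.4 and 31.3 CPM in EuMyc Max KO cells. Icosl, a ligand that helps T cells, stood at 324, 336 and 337 CPM in WT cells, 20.8, 17.4 and 29.2 CPM in EuMyc cells and 256, 313 and 307 CPM in EuMyc Max KO cells. The EuMyc Max KO libraries overlapped WT for Cr2 and Lta and lay just below WT for Icosl. Cdh17, Rasgrp3 and Kynu were the other genes of this kind that were low in EuMyc cells.

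**Figure D4:**
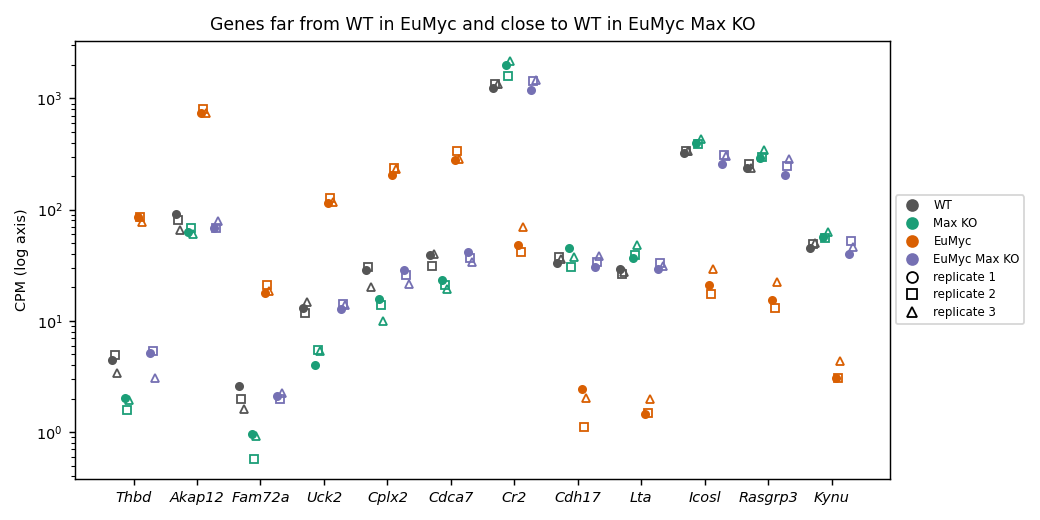
CPM on a log axis of 12 genes in each library, chosen for an interval against WT within 0.5 on the log2 scale and the largest EuMyc effect. For Cr2 the EuMyc libraries lie at 41.7 to 69.3 CPM, far below the WT and the EuMyc Max KO libraries.

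Other genes were away from the WT level at even values in the 3 EuMyc Max KO libraries. The rule for them, called genes whose highest EuMyc Max KO library was at most 1.25 times the lowest, was added after the erythroid order had been seen. Stag3, a subunit of meiotic cohesin, led on the high side and stood at 10.3, 16.7 and 9.47 CPM in WT cells, 121, 122 and 129 CPM in EuMyc Max KO cells, 155, 146 and 147 CPM in Max KO cells and 16.8, 13.7 and 18.8 CPM in EuMyc cells (log2 fold change 3.35, SE 0.18, adjusted p = 4.14e-06 against WT). Both Max-deleted genotypes were high and both genotypes with Max intact were low. Ptprs, a receptor phosphatase, stood at 45.2, 59.6 and 60.6 CPM in WT cells and 153, 157 and 168 CPM in EuMyc Max KO cells (log2 fold change 1.53, SE 0.10, adjusted p = 5.69e-06). It was also high in the EuMyc cells at 217, 228 and 200.1 CPM, as were Pogk (14.9, 18.0 and 19.5 CPM in WT cells, 39.3, 42.0 and 43.8 CPM in EuMyc Max KO cells, log2 fold change 1.26, SE 0.09, adjusted p = 9.78e-06) and Amigo1 (6.25, 6.31 and 6.85 CPM in WT cells and 22.5, 21.8 and 19.0 CPM in EuMyc Max KO cells, log2 fold change 1.70, SE 0.14, adjusted p = 2.18e-05).

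The start regions of these 4 genes are shown because each holds the E-box CACGTG, the sequence that MYC, MAX and their relatives bind. Each is the RefSeq window of GRCm38.p6 from 250 bases before to 50 after an annotated start, written 5′ to 3′ on the gene's strand, with CACGTG in capitals. The windows are chr5:138280259-138280558 (plus strand) for Stag3, chr17:56476431-56476730 (minus strand) for Ptprs, chr1:166409779-166410078 (minus strand) for Pogk and chr3:108186039-108186338 (plus strand) for Amigo1.
Stag3: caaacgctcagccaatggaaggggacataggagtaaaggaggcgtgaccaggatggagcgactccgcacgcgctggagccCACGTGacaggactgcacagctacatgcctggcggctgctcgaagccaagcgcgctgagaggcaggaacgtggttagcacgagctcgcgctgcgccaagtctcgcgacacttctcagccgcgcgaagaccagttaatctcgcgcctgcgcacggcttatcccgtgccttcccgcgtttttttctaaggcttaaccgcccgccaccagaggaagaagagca
Ptprs: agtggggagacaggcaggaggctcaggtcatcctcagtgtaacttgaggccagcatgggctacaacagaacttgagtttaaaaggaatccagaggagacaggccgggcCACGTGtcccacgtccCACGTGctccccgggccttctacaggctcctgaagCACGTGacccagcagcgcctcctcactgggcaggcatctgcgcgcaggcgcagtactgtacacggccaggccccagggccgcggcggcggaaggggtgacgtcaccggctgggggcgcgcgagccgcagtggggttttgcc
Pogk: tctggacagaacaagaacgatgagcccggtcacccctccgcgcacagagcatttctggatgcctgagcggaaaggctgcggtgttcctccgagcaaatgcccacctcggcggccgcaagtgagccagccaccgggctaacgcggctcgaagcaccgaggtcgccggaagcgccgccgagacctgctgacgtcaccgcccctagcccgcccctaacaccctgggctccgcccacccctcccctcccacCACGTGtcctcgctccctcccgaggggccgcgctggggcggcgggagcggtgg
Amigo1: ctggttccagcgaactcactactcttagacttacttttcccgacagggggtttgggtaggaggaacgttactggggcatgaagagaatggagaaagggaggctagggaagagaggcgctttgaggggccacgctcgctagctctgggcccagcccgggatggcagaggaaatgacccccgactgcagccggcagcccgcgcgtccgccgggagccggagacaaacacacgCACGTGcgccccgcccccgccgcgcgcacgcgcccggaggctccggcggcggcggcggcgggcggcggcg

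The first base of the motif lies 170 bases before the start in Stag3, 142, 126 and 91 bases before it in Ptprs, 3 bases before it in Pogk and 20 before it in Amigo1. The motif reads the same on both strands. Of the 12 leading even genes on the high side, 9 had a window and 4 of these held the motif in at least 1. Over all tested genes with a window the share was 1166 of 9855 (11.8%), and over all 32851 windows it was 7.15%. Among the 12 leading even genes on the low side 10 had a window and none held it. It was also in none of the windows of the genes with the largest rise (10 genes with a window) or fall (9 genes). The genes were picked for their values and are few, so this is a description, and a window without these letters shows nothing about binding.

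Germline genes as a group were mostly silent or nearly so. Of 30 listed genes 12 had enough reads to be tested. Their median log2 fold change was 0.46, and 0.62 without replicates 1 and 2. Of the 12, 4 were called higher, where 17% of all tested genes were called higher. Beside Stag3 these were Tdrkh (3.90, 3.75 and 3.63 CPM in WT cells, 10.3, 10.4 and 7.90 CPM in EuMyc Max KO cells, log2 fold change 1.34, SE 0.18, adjusted p = 4.53e-04), Smc1b, another meiotic cohesin subunit (0.917, 0.398 and 0.536 CPM in WT cells and 2.27, 2.19 and 2.81 CPM in EuMyc Max KO cells, log2 fold change 1.96, SE 0.35, adjusted p = 0.00203), and Zcwpw1, a reader of meiotic chromatin marks (28.0, 31.7 and 30.3 CPM in WT cells and 42.7, 43.1 and 44.2 CPM in EuMyc Max KO cells, log2 fold change 0.53, SE 0.10, adjusted p = 0.00272). All 4 were also above WT in Max KO cells, where 15% of all tested genes were called, 7.27% higher and 7.74% lower. Between EuMyc Max KO and Max KO cells the log2 fold change of the 4 genes ran from -0.27 in Stag3 to 0.75 in Smc1b, with adjusted p from 0.133 to 0.288.

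Circadian clock genes use E-boxes as well, through CLOCK and BMAL1. Of 16 tested, 9 were called higher and 1 lower (17% and 10.8% of all tested genes), with library medians of 0.33, 0.37 and 0.45. The median log2 fold change was 0.41, and 0.44 without replicates 1 and 2. Per2, a repressor of the clock, stood at 16.1, 16.7 and 19.5 CPM in WT cells, 39.1, 43.7 and 46.0 CPM in EuMyc Max KO cells, 57.8, 52.0 and 63.1 CPM in Max KO cells and 5.85, 6.86 and 5.22 CPM in EuMyc cells (log2 fold change 1.30, SE 0.11, adjusted p = 2.74e-05 against WT). Tef, an output factor, stood at 52.3, 57.2 and 54.6 CPM in WT cells, 113, 129 and 135 CPM in EuMyc Max KO cells, 133, 133 and 144 CPM in Max KO cells and 39.2, 37.3 and 41.7 CPM in EuMyc cells (log2 fold change 1.20, SE 0.07, adjusted p = 2.92e-06 against WT). For both, the Max-deleted libraries lay above WT and the EuMyc libraries below it. Nr1d1, which encodes the repressor REV-ERB alpha, stood at 1.78, 1.65 and 2.32 CPM in WT cells and 7.95, 8.11 and 7.85 CPM in EuMyc Max KO cells (log2 fold change 2.06, SE 0.16, adjusted p = 1.21e-05) but was highest in EuMyc cells at 17.6, 20.5 and 20.9 CPM. Arntl, which encodes BMAL1, was the lower gene (41.8, 39.5 and 34.4 CPM in WT cells, 26.3, 24.3 and 23.1 CPM in EuMyc Max KO cells, log2 fold change -0.65, SE 0.11, adjusted p = 0.00162). The time of day of collection is not in the labels.

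Il9r, the interleukin 9 receptor, was even and opposite in sign to the EuMyc cells. It stood at 70.7, 94.0 and 92.1 CPM in WT cells, 209.5, 226 and 222 CPM in EuMyc Max KO cells, 305, 357 and 334 CPM in Max KO cells and 3.92, 6.33 and 9.66 CPM in EuMyc cells (log2 fold change 1.36, SE 0.20, adjusted p = 0.00162 against WT). Atp11a, a lipid flippase, had the same order (7.22, 6.76 and 8.46 CPM in WT cells, 19.5, 16.7 and 16.0 CPM in EuMyc Max KO cells, log2 fold change 1.22, SE 0.14, adjusted p = 2.24e-04). Myc and Per2 also met the rule for even genes. Neto2, Gsto1, Wee1 and Akap1 were raised evenly and were also raised in EuMyc cells.

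On the low side the even genes were, beside Cd79a and Bmf, Cd209d, Tnks1bp1, Col27a1, Cables2, Kcnj1, Rnf144a, Myadm, Baiap2, Sidt1 and Thap6. Cables2 stood at 118, 109 and 102 CPM in WT cells, 42.0, 45.4 and 48.1 CPM in EuMyc Max KO cells, 47.2, 47.6 and 50.1 CPM in Max KO cells and 74.8, 73.3 and 74.9 CPM in EuMyc cells (log2 fold change -1.28, SE 0.07, adjusted p = 8.78e-07 against WT). Its EuMyc Max KO and Max KO values lay side by side, below both genotypes with Max intact. Tnks1bp1, a partner of tankyrase, stood at 53.3, 49.8 and 47.2 CPM in WT cells and 20.7, 18.5 and 22.5 CPM in EuMyc Max KO cells (log2 fold change -1.29, SE 0.09, adjusted p = 5.76e-06). The calls of Cd209d, Kcnj1 and Sidt1 were lost with replicates 1 and 2 left out. Their log2 fold changes were then -2.22, -0.98 and -1.01, against -2.10, -1.04 and -0.88 in the full fit.

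**Figure D5:**
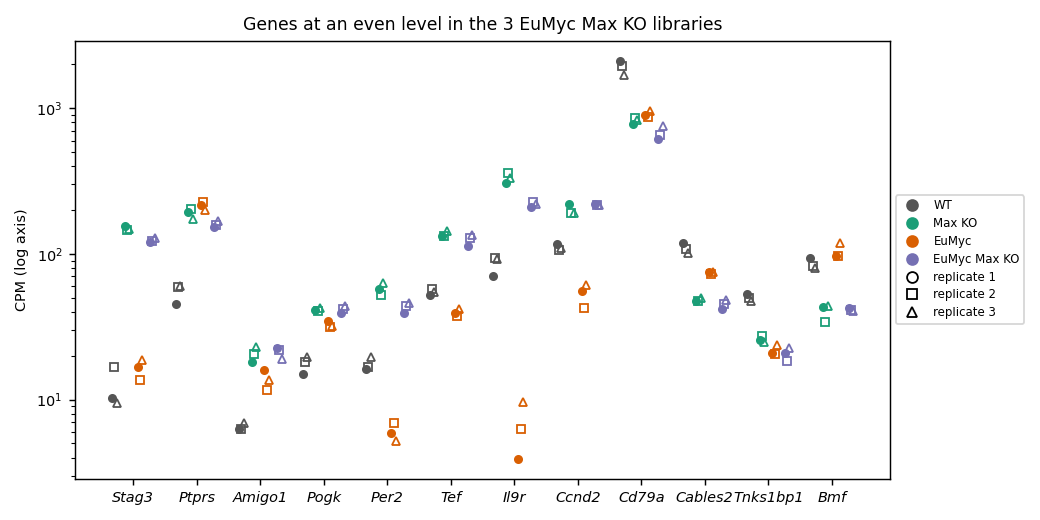
CPM on a log axis of 12 genes with even levels in the 3 EuMyc Max KO libraries. Stag3 lies at 121 to 129 CPM in EuMyc Max KO cells and at 9.47 to 16.7 CPM in WT, and Cables2, Bmf and Cd79a lie below WT.

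Stress and degradation lists held genes above WT. Of 19 tested ATF4 targets 7 were called higher (17% of all tested genes), and 3 with replicates 1 and 2 left out. Ppp1r15a, a stress-induced phosphatase subunit, stood at 24.2, 29.2 and 23.4 CPM in WT cells and 251, 168 and 52.4 CPM in EuMyc Max KO cells (log2 fold change 2.62, SE 0.47, adjusted p = 0.00394), in the erythroid order. Of 31 lysosome and autophagy genes 13 were called higher and 1 lower, and 2 were called higher without replicates 1 and 2. Wipi1, which acts in forming autophagosomes, stood at 0.745, 1.25 and 1.19 CPM in WT cells and 10.6, 8.39 and 6.24 CPM in EuMyc Max KO cells (log2 fold change 2.98, SE 0.38, adjusted p = 3.84e-04). Interferon response genes were called higher in 7 of 40 cases and lower in 3, near the 17% and 10.8% of all tested genes. Without replicates 1 and 2 edgeR called none of the 40, with 3 higher and 4 lower at an unadjusted p under 0.05. Immediate early factors were called lower in 6 of 22 cases and higher in 2, and in the same setting 2 were called lower and edgeR called none higher (1 at an unadjusted p under 0.05). Egr1, induced by receptor signals, stood at 86.1, 79.5 and 67.3 CPM in WT cells and 43.9, 43.9 and 40.9 CPM in EuMyc Max KO cells (log2 fold change -0.86, SE 0.12, adjusted p = 6.57e-04).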

How the data were processed

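RNA-seq of B220+ spleen cells gave 12 libraries, 3 for each of 4 genotypes. The authors deposited raw read counts per gene symbol, 1 table for each library. Per the submitters' processing notes, reads were handled with bcl2fastq 1.8.4, TopHat2 2.1.0 and HTSeq 0.6.1 on build mm10. No gene annotation or strand setting is named there, so overlapping and antisense genes may share reads. Rows that name no gene were left out of totals and tests. Alignments outside genes made up 16.8% to 20.3% of a library in WT and 15.0% to 18.5% in EuMyc Max KO cells.

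The counts were fitted in R 4.3.3 with edgeR 4.0.16 (filterByExpr, TMM factors, robust quasi-likelihood test, 8 residual degrees of freedom), with 1 coefficient for each genotype. Benjamini-Hochberg adjustment ran over 12878 genes, at a threshold of 0.05. Standard errors were the log2 fold change divided by the square root of the F statistic. The fit was tested on simulated counts for the comparison of EuMyc Max KO with WT over 12722 genes: 50.7% of genes changed 1.5-fold, 85.1% of those changed 2-fold and 92.4% of those changed 4-fold were recovered, and 5 of 157 calls were false. Alternatives were other normalizations, no low-count filter, 6 libraries, a replicate block, DESeq2 1.42.0, no erythroid markers and leaving out libraries. Leaving out single EuMyc or Max KO libraries was added after seeing the data.

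Libraries of 1 genotype differed by more than sampling noise (chi-square per degree of freedom from 9.09 to 69.6). The labels do not say that the same number marks a shared litter or day. Same-numbered WT and EuMyc Max KO libraries had correlations of deviations of 0.0386, -0.0963 and 0.0647, so the numbers were not taken to pair the samples.

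Genes named are: members of the MYC and MAX network; the 12 largest changes each way with a mean of at least 5 CPM and no overlap between groups; 6 each way beyond all 9 other libraries; 6 each way with a 95% interval against WT within 0.5 (log2) and the largest EuMyc effect; and up to 4 called members of each list with the smallest p. Lineage markers, antigen receptor segments and unnamed gene models were left out of the ranked sets. Cd22, Pax5, Ms4a1, Slc4a1, Csf1r, Cd3e, Stil, Igll1, Rag2 and Arntl were added after their values were seen, as was the rule for even genes. Some genes that these rules pick are not reported here. The members and lists were chosen with earlier results of these data known. Library medians of lists used a pseudocount of 0.5 CPM. Promoter windows came from RefSeq on GRCm38.p6, matched by symbol; those of the ranked sets were searched for CACGTG, and those printed were chosen after this search because they hold it. Of the symbols in the files, 95.7% matched GENCODE vM21.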

Additional observations from a re-analysis of the deposited data

How the results depend on the processing

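The count of 3581 genes called between EuMyc Max KO and WT depended most on replicate 1 of EuMyc Max KO and on replicates 1 and 2 together. It ran from 2379 (without EuMyc Max KO replicate 1) to 4236 when 1 WT or EuMyc Max KO library was left out, the higher genes from 1575 to 2561 and the lower ones from 804 to 1675. Without EuMyc Max KO replicate 1 there were 804 lower calls, and without replicate 2 there were 875. With replicates 1 and 2 left out together, 932 genes were called, 658 higher and 274 lower, and 569 were called against Max KO. In that setting the lone library is assumed to vary like the other groups. The 1853 calls against Max KO ran from 1057 to 2846 when 1 library was left out: 1070, 1057 and 2846 without EuMyc Max KO replicates 1, 2 and 3, and 1071 and 1078 without Max KO replicates 1 and 3. The 9494 calls against EuMyc stayed between 8244 and 9693 in the alternatives run. The fit with a replicate block called 3430 genes between EuMyc Max KO and WT. Not every same-numbered pair correlated best with its own number. DESeq2 called 3903, and the other normalizations, the fit without a filter and the fit without erythroid markers called between 3303 and 3812. The 6 libraries alone gave 2629. Of 218 called genes named by rule, 122 stayed called in each alternative, 94 lost the call with replicates 1 and 2 left out, and none changed sign. Of the genes chosen after their values were seen, Rag2 changed sign in that setting (log2 fold change -0.17). Changes in genes with few reads, such as Igll1 and Rag2, are limited by depth in WT.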

Other observations

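Receptor genes were mostly near or under WT in EuMyc Max KO cells and well under it in EuMyc cells. Of 20 homing and chemokine receptor genes 8 were called lower and 2 higher (10.8% and 17% of all tested genes), with a median log2 fold change of -0.32 against -2.20 in EuMyc cells, and 3 were called lower without EuMyc Max KO replicates 1 and 2. S1pr4, a sphingosine phosphate receptor, stood at 141, 121 and 114 CPM in WT cells, 78.7, 78.3 and 77.8 CPM in EuMyc Max KO cells and 80.0, 82.8 and 78.6 CPM in Max KO cells (log2 fold change -0.68, SE 0.10, adjusted p = 7.76e-04 against WT). Both Max-deleted genotypes were below every WT library and overlapped each other. Of 23 cytokine and survival receptors 6 were called lower and 3 higher, and 1 lower and 2 higher without those libraries. Tnfrsf13c, the BAFF receptor that mature B cells need to survive, stood at 388, 357 and 339 CPM in WT cells, 205, 226 and 283 CPM in EuMyc Max KO cells and 159, 129 and 162 CPM in EuMyc cells (log2 fold change -0.60, SE 0.12, adjusted p = 0.00368 against WT). Replicate 3 was nearest to WT, and without the other 2 libraries the adjusted p was 0.113.

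Of 14 tested genes of polycomb complex 2 and DNA methylation 4 were called higher, where 17% of all tested genes were, and as many without replicates 1 and 2. Dnmt3a, which adds new methyl marks, stood at 95.1, 104 and 98.3 CPM in WT cells, 129, 131 and 127 CPM in EuMyc Max KO cells, 126, 127 and 129 CPM in Max KO cells and 102, 98.4 and 105 CPM in EuMyc cells (log2 fold change 0.38, SE 0.05, adjusted p = 4.32e-04 against WT). The Max-deleted libraries overlapped each other and lay above all 6 libraries with Max intact. Uhrf1, which keeps marks through replication, stood at 48.6, 45.2 and 47.3 CPM in WT cells and 147, 107 and 70.5 CPM in EuMyc Max KO cells (log2 fold change 1.20, SE 0.22, adjusted p = 0.00400), in the order of the erythroid sum.

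Of 16 tested plasma cell genes 2 were called higher and 1 lower, a share below the 27.8% of all tested genes. Derl3, of the protein quality control of the endoplasmic reticulum, stood at 13.6, 19.7 and 22.7 CPM in WT cells, 43.6, 38.7 and 65.6 CPM in EuMyc Max KO cells, 44.2, 53.1 and 57.2 CPM in Max KO cells and 7.30, 5.10 and 11.3 CPM in EuMyc cells (log2 fold change 1.40, SE 0.29, adjusted p = 0.00663 against WT). Replicate 3 was highest, unlike the erythroid genes. Among polyamine genes, 3 of 12 were called higher and 2 lower (17% and 10.8% of all tested genes), and without replicates 1 and 2 edgeR called 2 higher and none lower (none lower at an unadjusted p under 0.05 either). Odc1, the first enzyme of polyamine synthesis, stood at 202, 209.8 and 218 CPM in WT cells, 504, 404 and 299.6 CPM in EuMyc Max KO cells and 384, 455 and 419.7 CPM in EuMyc cells (log2 fold change 0.94, SE 0.15, adjusted p = 0.00143 against WT), with replicate 1 above the EuMyc range and replicate 3 below it. Cholesterol and fatty acid synthesis genes were called higher in 4 of 29 cases, below the 17% of all tested genes. Elovl6, a fatty acid elongase, stood at 13.0, 15.9 and 17.2 CPM in WT cells, 20.6, 19.6 and 25.9 CPM in EuMyc Max KO cells and 196, 156 and 197 CPM in EuMyc cells (log2 fold change 0.52, SE 0.15, adjusted p = 0.0231 against WT). Leaving out WT replicate 1, WT replicate 2 or EuMyc Max KO replicate 3 ended this call, with adjusted p up to 0.0910.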
